A study of Mus musculus with 16 samples.

Results

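The 9 genes described here act in mitochondrial fatty acid oxidation or beside it, and were taken by name from a list: Cpt1a, Acadvl, Acadl, Acadm, Hadha, Hadhb, Acaa2, Acot1 and Acsm3. All 9 were found among the 27179 genes of the table, and all 9 passed the filter on low values in every comparison. Their RNA was read from 16 poly(A) RNA-seq libraries of 4 lines of mouse tumour organoids, which are epithelial cultures grown as small 3-dimensional bodies. MTO54 and MTO220 are AKP lines with Tgfbr2 labelled wild type. They were grown with TGF-beta1 added and galunisertib left out, collected at day 7, or in full medium, collected at day 4. MTO100 and MTO101 are APT lines, and they were grown without EGF, collected at day 7, or in full medium, collected at day 4. AKP and APT are the submitters' genotype names, spelled out no further by them. By the field's usual reading, both include lesions of Apc and Trp53, and APT includes a lesion of Tgfbr2. Full medium held EGF at 50 ng/ml, the BMP antagonist noggin at 100 ng/ml and galunisertib at 1 µM, which blocks the kinase of TGFBR1. Noggin was part of every medium by the protocol. Each line and medium had 2 libraries, 1 per sequencing pool, from consecutive passages of the same line. They are not separate animals, and p-values here measure the spread between such cultures. In each comparison of media, the medium and the day of collection cannot be told apart.

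Mitochondria burn fatty acids by shortening them stepwise. A fatty acid is first joined to coenzyme A, and a long chain then crosses the mitochondrial membranes as its carnitine ester. Inside, an acyl-CoA dehydrogenase, a hydratase, a second dehydrogenase and a thiolase act in turn, each round releasing acetyl-CoA for the citrate cycle or for ketone bodies. In the intestine the pathway is known from enterocytes and stem cells, and the nuclear receptors of the PPAR family raise many of its genes.

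The libraries held 17056053 to 22251986 reads on genes. All values are normalised reads, which are reads divided by the size factor of the library. Trp53 RNA lay at 1916 to 4207 normalised reads in the 4 libraries labelled MTO220 and at 91.2 to 252 in the 12 libraries of the other lines, so the libraries labelled MTO220 stand apart from the rest in this gene and do not show the low level seen in the other lines. Tgfbr2 RNA lay at 2573 to 3353 in MTO100, within the range of 2349 to 4922 in MTO54, and at 877 to 1616 in MTO101, so its RNA level did not set MTO100 apart from the AKP lines. AKP results that change in MTO54 alone, where 27.6% of all genes were called, are given that way too. All 4 epithelial markers were found in every group, with a summed level of 66129 to 178202 over the 16 libraries, against 0 to 6.22 for 4 adipocyte markers. Sums of the other non-epithelial lists were higher than that of adipocytes. They were 24.1 to 1251 for 3 endothelial, 4.31 to 594 for 5 immune, 10.3 to 513 for 5 fibroblast and 17.2 to 194 for 3 hepatocyte markers. Of the enterocyte markers, Vil1 lay at 4195 to 12276 over all libraries, while Apoa4 and Fabp1 stayed under 1. The enterocyte sum was 4399 to 4786 in TGF-beta and 7174 to 9766 in full medium in AKP lines (1 of 4 tested higher and 2 lower), and 5847 to 9700 without EGF and 5739 to 13612 in full medium in APT lines (1 of 3 higher and 0 lower). Proliferation markers were lower in both changed media. In AKP lines 4 of 5 fell, with a sum of 11876 to 24887 in TGF-beta medium and 38900.4 to 47398 in full medium. In APT lines 5 of 5 fell, with a sum of 8236 to 17435 without EGF and 35942 to 42268 in full medium, and no proliferation marker was at 0 in any library. The share of reads on the 15 genes of the mitochondrial chromosome was 1.91 to 2.41% in TGF-beta and 1.39 to 1.68% in full medium in AKP lines. In APT lines it was 2.62 to 4.05% without EGF and 1.74 to 2.09% in full medium. In AKP lines the 4 tested of 7 goblet cell markers fell, with a sum of 144 to 212 in TGF-beta and 1485 to 21142 in full medium. The 3 tested of 6 Paneth cell markers fell too (187 to 309.7 and 645 to 4813). Of 5 fibroblast markers 2 were tested there and rose, with a sum of 108.4 to 201 in TGF-beta and 10.3 to 18.9 in full medium. Of 4 tuft cell markers 1 was tested there and rose. In APT lines the 5 tested of 6 Paneth cell markers rose, with a sum of 9769.9 to 15176 without EGF and 2688 to 3621 in full medium. The 3 tested of 5 enteroendocrine markers rose too (1063 to 2088 and 76.8 to 133.6). Of 4 tuft cell markers 3 were tested and 2 rose without EGF, and of 5 fibroblast markers 2 were tested and rose. Of the 6 tested goblet cell markers 2 rose and 1 fell. A marker that is low in 1 medium passes the filter only through the medium where it is high. The direction of such calls was thus partly set by the filter. Calls of stem cell markers went both ways. In APT lines 1 of 4 rose and 1 fell, with a sum of 37785 to 46216 without EGF and 13370 to 21554 in full medium. In AKP lines 1 of 5 rose and 2 fell, with a sum of 12443 to 15117 in TGF-beta and 7196 to 14577 in full medium. The part of these shifts in the changes described here was not tested. In bulk RNA, fewer cells of a type and less RNA per cell cannot be told apart. Both pool 2 libraries without EGF came from dilute RNA (14.6 and 13.2 ng/µl), and APT results that change without them are given that way too.

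Hadha (Entrez gene 97212) and Hadhb (231086) encode the alpha and beta subunits of the mitochondrial trifunctional protein and lie head to head on chromosome 5 (GRCm38), Hadha from 30119423 to 30154980 on the minus strand and Hadhb from 30155253 to 30184593 on the plus strand. The annotated starts are 272 bases apart, and 9.39% of 13572 plus-strand genes have a minus-strand start that close or within 300 bases. The stretch between the genes that lies in no annotated exon is shown because the RNAs of both genes moved together in these libraries, with GC boxes (GGGCGG on either strand) in capitals. It is chr5:30155163-30155247, plus strand.
Hadha and Hadhb: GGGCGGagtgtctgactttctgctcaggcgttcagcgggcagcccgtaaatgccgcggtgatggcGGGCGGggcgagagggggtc
The 250 bases before the start of Cpt1a (chr19:3323051-3323300, plus strand) are shown because Cpt1a was the gene of the 9 that rose without EGF. Capitals mark the nuclear receptor motif AGGTCA, GC boxes and the CCAAT box, on either strand.
Cpt1a: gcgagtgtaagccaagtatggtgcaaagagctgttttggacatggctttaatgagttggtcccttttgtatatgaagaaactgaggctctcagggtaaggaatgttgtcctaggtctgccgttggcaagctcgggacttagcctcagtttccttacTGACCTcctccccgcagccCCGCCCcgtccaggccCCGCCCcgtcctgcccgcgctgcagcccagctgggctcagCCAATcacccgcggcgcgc
RefSeq promoters (GRCm38.p6) were matched for 8 of the 9 genes, each with the 250 bases before an annotated start and searched on both strands. For Cpt1a and Acsm3 the start used lies inside the outer bounds of the gene. The PPAR/RXR element AGGTCANAGGTCA was in 0 of the 8 and in 0.0335% of 32851 mouse promoters. AGGTCA alone was in 3 of the 8 (Acadm, Acadvl and Cpt1a) and in 14% of all promoters. GGGCGG was in 5 of the 8 and in 32.7% of all promoters, with 1 box that lies in the windows of both Hadha and Hadhb. CCAAT was in 3 of the 8 (Acsm3, Acot1 and Cpt1a) and in 33.8% of all promoters. A match is a description of these letters and no evidence of binding.

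Per kilobase of exon, in full medium, Hadhb stood highest in AKP lines with 1407 ± 254 normalised reads per kilobase (SD, n = 4), followed by Hadha at 1308 ± 312, Acadl at 1160 ± 149.9, Acaa2 at 944 ± 274 and Acadvl at 846 ± 137. The libraries of neighbours in that order overlapped. Acadm followed at 503 ± 106, then Cpt1a at 213 ± 16.6, Acsm3 at 147 ± 53.6 and Acot1 at 141 ± 45.7. The lowest library of Acadvl, of Acadm and of Cpt1a lay above the highest of the next gene, while Acsm3 and Acot1 overlapped. In APT lines Acaa2 came first at 1783 ± 546 per kilobase, and Acot1 at 209.8 ± 39.7 and Acsm3 at 68.4 ± 77.3 came last. In TGF-beta medium, Acaa2 stood at 292 ± 54.0 per kilobase and Acadl came first at 1052 ± 94.2. Without EGF, Cpt1a averaged 901 ± 552 per kilobase, between the means of Acadl (1010) and Acadvl (751). Its libraries lay far apart, at 518 and 358 in MTO100 and at 1512 and 1216 in MTO101. Those of the dehydrogenases ran from 509 (Acadm) to 1213 (Acadl).

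The RNA of 6 of the 9 genes fell in AKP lines in TGF-beta medium, and no member rose. Those that fell were Acadm, Hadha, Hadhb, Acaa2, Acot1 and Acsm3. Among all 13725 genes tested, 25.7% fell and 27.0% rose, 52.6% together. The median log2 change was -0.79 over the 9 genes and 0.02 over all genes. In APT lines without EGF, 3 of the 9 fell (Acaa2, Acot1 and Acsm3), and Cpt1a rose, against 21.7% lower and 26.8% higher among all 14373 genes tested, 48.5% together. The median log2 change was -0.24 over the 9 genes and 0.08 over all genes. The 9 genes were chosen with earlier results of these data known. Their counts and medians beside those of all genes are therefore a description and no test of the set. All changes here are log2 changes of normalised reads plus 1, with limma's standard error and a Benjamini-Hochberg adjusted p over all genes tested. A gene was called at an adjusted p under 0.05. With library totals in place of size factors the median of all genes moved to 0.14 in AKP and 0.31 in APT lines, and the share of calls that were higher moved from 51.3% to 59.4% in AKP and from 55.2% to 71.1% in APT lines.

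**Figure D1:**
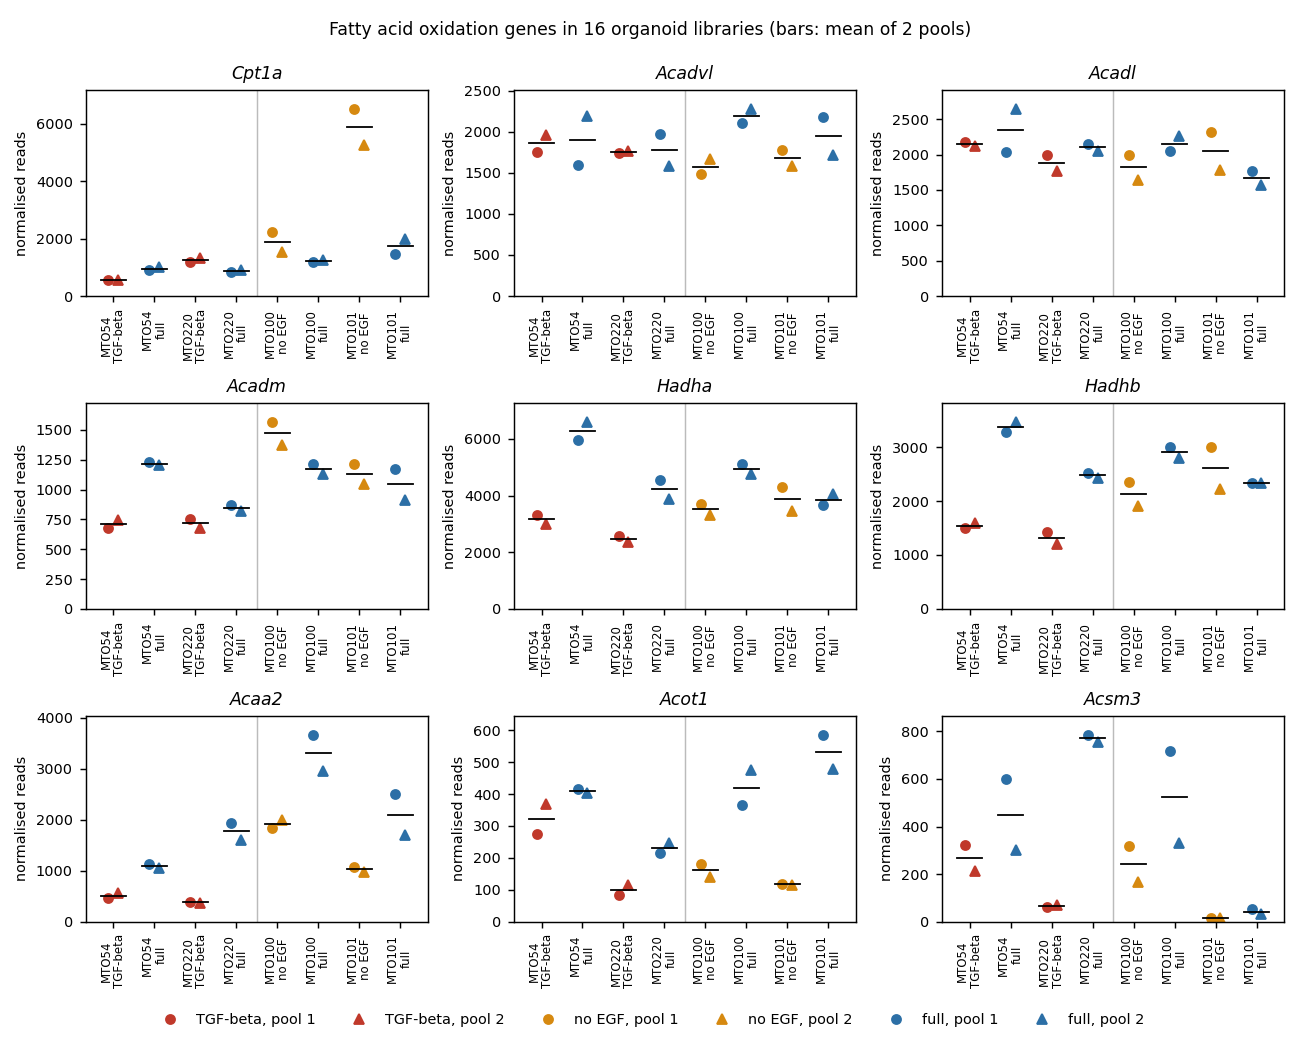
Normalised reads (vertical axes, from 0) of the 9 genes in all 16 libraries, by line and medium, with circles for pool 1, triangles for pool 2 and bars for the mean of both pools. In MTO101 without EGF, Cpt1a stands at 6527 and 5249, above every other library, and Acaa2 stands at 373 to 554 in the 4 TGF-beta libraries.

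Cpt1a (Entrez gene 12894, chromosome 19, 3322326 to 3385735, GRCm38) encodes the liver-type carnitine palmitoyltransferase of the outer mitochondrial membrane, which controls the entry of long-chain fatty acids and is inhibited by malonyl-CoA. Without EGF it had 2237 and 1546 normalised reads in MTO100 and 6527 and 5249 in MTO101, against 1173 and 1251 in MTO100 and 1476 and 1993 in MTO101 in full medium. It was higher without EGF in all 4 pairs of line and pool, but the groups overlap, since the lower MTO100 library without EGF lies below the higher MTO101 library in full medium. Cpt1a rose in APT lines by 1.19 ± 0.25 (adjusted p = 0.00232, n = 4 each), a 2.64-fold difference of means. In MTO101 alone the change was 1.77 ± 0.26 (adjusted p = 0.00255), and in MTO100 alone it was 0.62 ± 0.25 (adjusted p = 0.0525). Without the line as a term the adjusted p over both lines was 0.0647. The shares of all genes called were 37.6% in MTO101 and 36.0% in MTO100. The MTO101 response minus the MTO100 response was 1.15 ± 0.35 (adjusted p = 0.134). By limma, 2.34% of all genes were called in that difference, 1.09% higher and 1.26% lower, and 0 of the 9 were, with 2 of the 9 at an unadjusted p under 0.05 and 0 by edgeR and DESeq2.

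In TGF-beta medium, Cpt1a moved in opposite directions in the AKP lines. MTO54 had 566 and 560.2 normalised reads in TGF-beta medium, against 893 and 1019 in full medium. MTO220 had 1193 and 1336 in TGF-beta medium, against 851 and 912 in full medium. Within each line the media do not overlap. Cpt1a fell in MTO54 alone by 0.76 ± 0.27 (adjusted p = 0.0403, with 27.6% of all genes called) and rose in MTO220 alone by 0.52 ± 0.14 (adjusted p = 0.0186, with 62.0% called). The MTO220 response minus the MTO54 response was 1.28 ± 0.25 (adjusted p = 0.0132), where 8.20% of all genes were called, 5.49% higher and 2.72% lower, and 1 and 2 of the 9 were. That call was lost without any 1 of the 4 TGF-beta libraries, at adjusted p-values of 0.05002 to 0.100. Over both lines the change was -0.12 ± 0.24 (adjusted p = 0.690).

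Acadvl, Acadl and Acadm encode the very long-chain, long-chain and medium-chain acyl-CoA dehydrogenases, which open each round of the spiral. Acadvl (Entrez gene 11370) lies on chromosome 11 from 70010183 to 70015428, Acadl (11363) on chromosome 1 from 66830839 to 66863309 and Acadm (11364) on chromosome 3 from 153922353 to 153944643. Acadvl ranged from 1485 to 2277 and Acadl from 1569 to 2647 normalised reads over all 16 libraries. In AKP lines Acadvl differed by -0.01 ± 0.15 (adjusted p = 0.954) and Acadl by -0.14 ± 0.13 (adjusted p = 0.410). In APT lines Acadvl differed by -0.34 ± 0.15 (adjusted p = 0.0885), lower without EGF in all 4 pairs, and Acadl by 0.02 ± 0.17 (adjusted p = 0.932). With TMM scaling, or without the pool 2 library of MTO101 in full medium, Acadvl was called lower in APT lines (adjusted p = 0.0461 and 0.0347). Of the 2686 exon bases of Acadvl, 1151 overlap exons of Dvl2 on the other strand, and a library kit that does not mark strand cannot tell their reads apart. Dvl2 fell by 0.45 ± 0.14 in AKP lines and differed by -0.53 ± 0.15 in APT lines (adjusted p = 0.0236 and 0.0115).

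Acadm was the one of the 3 dehydrogenases called in TGF-beta medium, and its difference from the others was not tested. It had 681 and 742 normalised reads in MTO54 and 754 and 681 in MTO220 in TGF-beta medium, against 1231 and 1202 in MTO54 and 868 and 818 in MTO220 in full medium. All 4 TGF-beta libraries lay below all 4 full-medium libraries, as for 38.3% of all genes in one direction or the other. Acadm fell by 0.50 ± 0.15 (adjusted p = 0.0190), a 1.44-fold difference of means. It fell in MTO54 alone by 0.77 ± 0.26 (adjusted p = 0.0329) and differed by -0.23 ± 0.15 in MTO220 alone (adjusted p = 0.200). The call over both lines was lost without the pool 1 library of MTO54 in full medium (adjusted p = 0.0504) or in TGF-beta medium (0.0624), with library totals (0.0620) and with the pools averaged (0.192). In APT lines, Acadm had 1568, 1371, 1215 and 1042 normalised reads without EGF, against 1214, 1129.9, 1174 and 911 in full medium. It differed by 0.22 ± 0.16 (adjusted p = 0.255), and with library totals it was called higher by 0.45 (adjusted p = 0.0306).

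Hadha and Hadhb, whose products catalyse the later 3 reactions of the spiral on long chains, fell together in TGF-beta medium. Hadha had 3308 and 3009 normalised reads in MTO54 and 2582 and 2361 in MTO220 in TGF-beta medium, against 5976 and 6604 in MTO54 and 4543 and 3892 in MTO220 in full medium. Hadhb had 1501 and 1591 in MTO54 and 1418 and 1194 in MTO220 in TGF-beta medium, against 3285 and 3472 in MTO54 and 2516 and 2436 in MTO220 in full medium. For both genes every TGF-beta library lay below every full-medium library. The media were separate in one direction or the other for 38.3% of all genes in AKP lines. Hadha fell by 0.88 ± 0.13 (adjusted p = 0.000395) and Hadhb by 1.03 ± 0.13 (adjusted p = 0.000131), with means 1.87-fold and 2.05-fold lower. MTO54 alone gave a fall of 0.99 for Hadha (adjusted p = 0.00411) and of 1.13 for Hadhb (adjusted p = 0.00184). Both calls held under each alternative run.

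Without EGF the pair was not called. Hadha had 3708 and 3325 normalised reads in MTO100 and 4309 and 3454 in MTO101 without EGF, against 5119 and 4769.9 in MTO100 and 3655 and 4053 in MTO101 in full medium. Hadhb had 2346 and 1905 in MTO100 and 3006 and 2222 in MTO101 without EGF, against 3009 and 2803 in MTO100 and 2332 and 2342 in MTO101 in full medium. In MTO100 both genes were lower without EGF in both pools, and in MTO101 the pools went opposite ways. Hadha differed by -0.24 ± 0.17 (adjusted p = 0.249) and Hadhb by -0.16 ± 0.18 (adjusted p = 0.495), and Hadhb turned to 0.07 with library totals and to 0.03 without both dilute libraries. The ratio of Hadhb to Hadha per kilobase stayed between 0.876 and 1.35 over the 16 libraries. It averaged 0.984 ± 0.0793 in TGF-beta and 1.09 ± 0.0835 in full medium in AKP lines, and 1.23 ± 0.0987 without EGF and 1.15 ± 0.0526 in full medium in APT lines (SD, n = 4 each). In each genotype the ranges of the media overlapped.

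Acaa2 (Entrez gene 52538) encodes the mitochondrial 3-ketoacyl-CoA thiolase, which ends each round by splitting off acetyl-CoA. It fell in both comparisons. It had 456 and 554 normalised reads in MTO54 and 389.7 and 373 in MTO220 in TGF-beta medium, against 1134 and 1050.0 in MTO54 and 1936 and 1604 in MTO220 in full medium. The groups do not overlap, as for 38.3% of all genes in AKP lines in one direction or the other. Acaa2 fell by 1.66 ± 0.22 (adjusted p = 0.000191), a 3.23-fold difference of means. MTO54 alone gave a fall of 1.12 ± 0.27 (adjusted p = 0.00440). The response of MTO220 minus that of MTO54 was -1.09 ± 0.27 (adjusted p = 0.0347), a call that was lost in 6 of 8 fits that left out 1 library (0.0517 to 0.172 in those). Without EGF, Acaa2 had 1836 and 1989 in MTO100 and 1069 and 979.6 in MTO101, against 3667 and 2950.4 in MTO100 and 2501 and 1691 in MTO101 in full medium. MTO101 held less Acaa2 than MTO100 in either medium, so the groups overlap over both lines but not within a line. Acaa2 fell by 0.89 ± 0.17 (adjusted p = 0.00149), a 1.84-fold difference of means, and the call held under each alternative run.

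**Figure D2:**
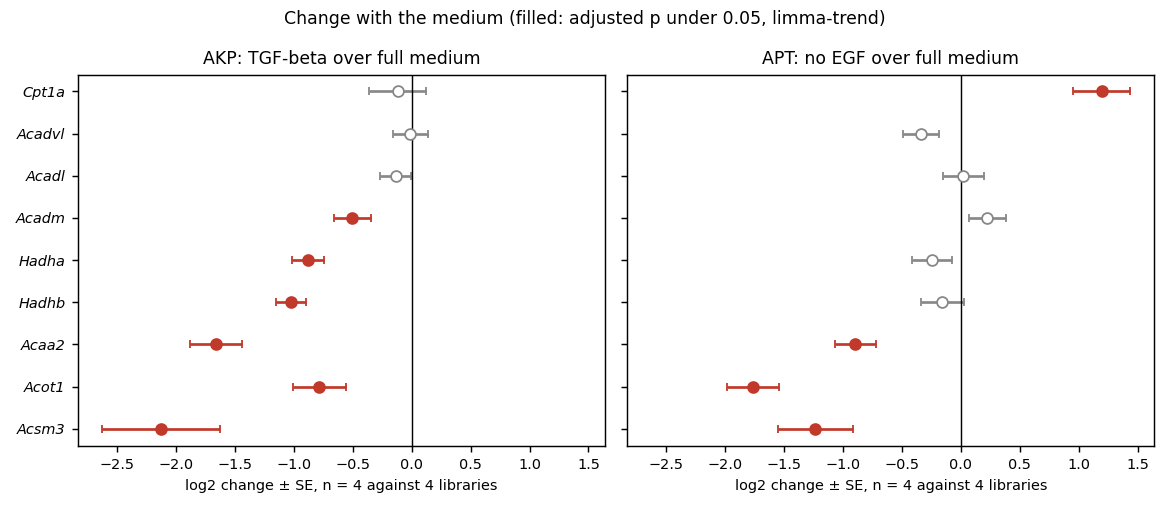
Log2 change with the medium (horizontal axes) of the 9 genes in AKP lines (left) and APT lines (right), with points for limma's estimate, bars for its standard error and filled points for an adjusted p under 0.05. Cpt1a is filled at 1.19 in APT lines, and Acaa2, Acot1 and Acsm3 are filled below 0 in both panels.

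Acot1 (Entrez gene 26897, chromosome 12, 84009502 to 84017670) encodes a cytosolic acyl-CoA thioesterase, which returns long-chain acyl-CoA to free fatty acid and coenzyme A. Without EGF it had 182 and 142 normalised reads in MTO100 and 119.6 and 115 in MTO101, against 366 and 474 in MTO100 and 586 and 479.9 in MTO101 in full medium. The groups do not overlap, which held for 35.9% of all genes in APT lines. Acot1 fell by 1.77 ± 0.22 (adjusted p = 0.000115), a 3.41-fold difference of means. In TGF-beta medium it had 275 and 368 in MTO54 and 85.0 and 115 in MTO220, against 416 and 402 in MTO54 and 215 and 247 in MTO220 in full medium. Each line was lower in TGF-beta medium, and MTO54 in TGF-beta medium still lay above MTO220 in full medium. Acot1 fell in AKP lines by 0.79 ± 0.22 (adjusted p = 0.0137). The change in MTO54 alone was -0.36 ± 0.29 (adjusted p = 0.380), and without the pool 1 library of MTO220 in TGF-beta medium the change over both lines was -0.62 (adjusted p = 0.0520). The call was also lost without the line term (0.211) and with the pools averaged (0.157).

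Reads of Acot1 can be shared with its neighbour Acot2 on chromosome 12, which encodes a mitochondrial thioesterase. The coding sequences of Acot1 and Acot2 were 95.5% identical over 1239 aligned bases, and the longest identical run was 273 bases, so values of Acot1 are uncertain where the counting could split such reads. A coding stretch of 90 bases (GENCODE M21 transcripts, GRCm38) is shown for both genes because it holds many of the differences that let reads be told apart, with the 14 differing bases in capitals.
Acot1: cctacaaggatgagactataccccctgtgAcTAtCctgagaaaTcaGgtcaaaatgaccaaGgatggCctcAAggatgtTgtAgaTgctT
Acot2: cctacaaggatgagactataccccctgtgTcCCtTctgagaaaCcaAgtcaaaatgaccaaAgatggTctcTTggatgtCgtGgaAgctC
Acot2 averaged 99.6 ± 9.25 normalised reads without EGF and 233 ± 44.3 in full medium in APT lines (SD, n = 4 each), a fall of 1.20 ± 0.20. It averaged 109.3 ± 53.0 in TGF-beta and 147 ± 48.1 in full medium in AKP lines, and its change of -0.51 ± 0.21 was not called. The ratio of Acot2 to Acot1 per kilobase averaged 0.760 ± 0.157 without EGF and 0.506 ± 0.0163 in full medium in APT lines, and the ranges did not overlap.

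Acsm3 (Entrez gene 20216, chromosome 7, 119760883 to 119784896) encodes a mitochondrial synthetase that joins medium-chain fatty acids to coenzyme A. In TGF-beta medium it had 324 and 211 normalised reads in MTO54 and 60.3 and 69.4 in MTO220, against 599.6 and 301 in MTO54 and 786 and 757 in MTO220 in full medium. The MTO220 libraries fell far apart by medium, while the higher MTO54 library in TGF-beta medium lay above the lower one in full medium. Acsm3 fell in AKP lines by 2.13 ± 0.50 (adjusted p = 0.00527), by 3.56 ± 0.17 in MTO220 alone (adjusted p = 2.04e-05), and it differed by -0.70 ± 0.35 in MTO54 alone (adjusted p = 0.147). With the pools averaged the adjusted p over both lines was 0.0945. The MTO220 response minus the MTO54 response was -2.86 ± 0.46 (adjusted p = 0.00453), a call that held without any 1 library.

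Without EGF, Acsm3 had 317 and 166 normalised reads in MTO100 and 13.8 and 16.6 in MTO101, against 719 and 331 in MTO100 and 51.8 and 32.7 in MTO101 in full medium. It was lower without EGF in all 4 pairs, from very different starting levels. Acsm3 fell by 1.24 ± 0.32 (adjusted p = 0.00799), and the call was lost without both dilute libraries (adjusted p = 0.0728) and without the line term (0.491). Without the dilute libraries, 28.0% of all genes and 3 of the 9 were called. Of the 4936 exon bases of Acsm3, 1962 overlap exons of Eri2 on the other strand. Eri2 fell in APT lines by 0.64 (adjusted p = 0.0290) and differed by -0.17 in AKP lines (adjusted p = 0.522).

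**Figure D3:**
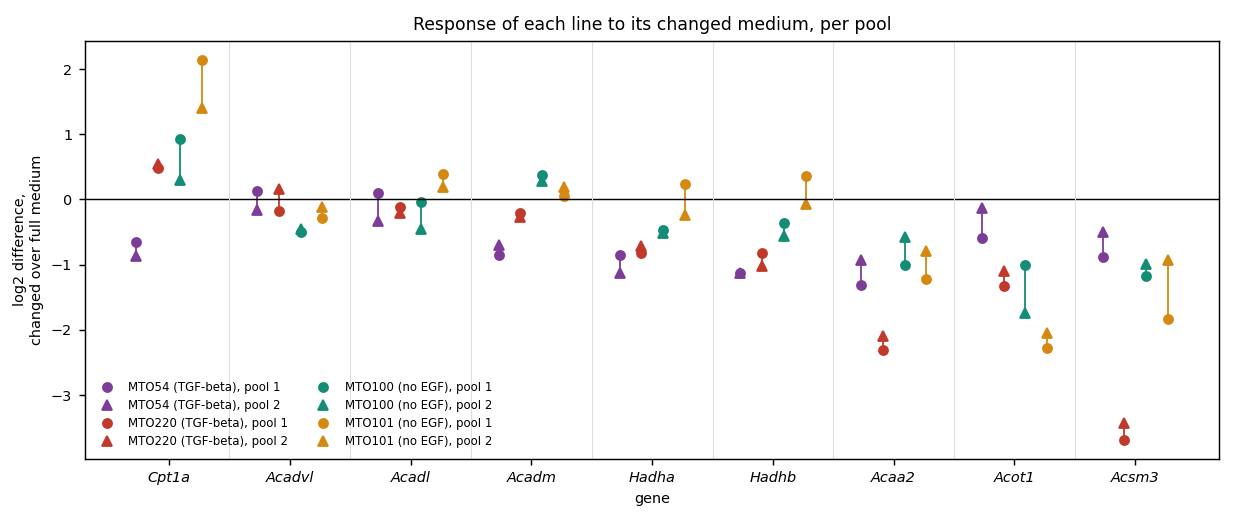
Log2 difference between changed and full medium (vertical axis) of the 9 genes in each line, with circles for pool 1 and triangles for pool 2, joined by a line. Cpt1a lies below 0 in MTO54 and above 0 in MTO220, MTO100 and MTO101, and Acsm3 in MTO220 is the lowest, at -3.68 and -3.43.

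The 2 responses were compared directly in all 16 libraries, as the AKP response to TGF-beta medium minus the APT response to EGF withdrawal. No line was grown in both changed media, so genotype and kind of medium change cannot be told apart here. Here 22.2% of 15087 genes were called, 10.5% higher and 11.7% lower, and 5 of the 9 genes were, 1 higher and 4 lower. Hadhb differed by -0.87 ± 0.21 (adjusted p = 0.00768) and Acadm by -0.73 ± 0.20 (adjusted p = 0.0175). Cpt1a differed by -1.31 ± 0.37 (adjusted p = 0.0182), Hadha by -0.64 ± 0.20 (adjusted p = 0.0300) and Acot1 by 0.98 ± 0.32 (adjusted p = 0.0372). Acot1 thus fell further in APT lines without EGF than in AKP lines in TGF-beta medium. With the pool as a replicate block, which pairs the libraries of a line, 2 of the 9 were called, and Cpt1a (adjusted p = 0.0592), Hadha (0.0631) and Acot1 (0.0802) were not. The calls of Hadha and Acot1 were also lost in 8 and 11 of the 16 fits without 1 library. Acaa2, which fell in both genotypes, differed by -0.77 ± 0.28 (adjusted p = 0.0649). Acadvl, Acadl and Acsm3 were not called, with adjusted p-values of 0.264, 0.645 and 0.373.

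In full medium, the lines of a genotype already differed in some of the 9 genes. MTO220 held less Hadha than MTO54 (-0.58 ± 0.17, adjusted p = 0.0425) and less Acot1 (-0.83 ± 0.24, adjusted p = 0.0396), and more Acaa2 (0.69 ± 0.19, adjusted p = 0.0307), where 17.8% of all genes were called, 8.67% higher and 9.17% lower. With the replicate block Hadha was not called (adjusted p = 0.0598), and leaving out single libraries left 0 to 3 of the 9 called. MTO101 held less Acsm3 than MTO100, 51.8 and 32.7 against 719 and 331 normalised reads, a difference of -3.53 ± 0.44 (adjusted p = 0.000262), where 14.1% of all genes were called, 6.16% higher and 7.97% lower. The other 8 genes were not called between MTO101 and MTO100. Between AKP and APT lines in full medium, with the pools of each line averaged to 2 lines against 2, limma called 0 of 13898 genes (0.00%). At an unadjusted p under 0.05, 1480 genes and 1 of the 9 passed, which was Cpt1a (-0.65 ± 0.24), at 919 ± 71.7 normalised reads in AKP and 1473 ± 369 in APT lines (SD, n = 4). The adjusted p of Cpt1a was 0.458.

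The other genes of the pathway were read from lists by role, and their counts stand against 52.6% of all genes called in AKP and 48.5% in APT lines. Uptake and activation genes, which bring fatty acids into the cell and join them to coenzyme A, went both ways in TGF-beta medium, with 4 of 8 higher and 2 lower. Acsl3 rose by 1.23 ± 0.17 and the transporter Slc27a4 by 0.99 ± 0.14, and Acsl1 fell by 0.80 ± 0.20. Acsl6 was also called higher, from very different levels: it had 596 to 769 normalised reads in TGF-beta and 158 to 231 in full medium in MTO54, and 44.7 to 63.5 in TGF-beta and 0 in both full-medium libraries in MTO220. Its change was 1.82 ± 0.30 in MTO54 alone, and the responses of the lines differed (adjusted p = 0.00126). In MTO54 alone 3 of the 8 rose and 0 fell, without Acsl1. Without EGF 3 of 8 rose and 1 fell, with log2 changes of 1.08 ± 0.23 for Slc27a1, 0.94 ± 0.21 for Acsl3, 0.57 ± 0.17 for Acsl4 and -2.95 ± 0.55 for Acsl6. Of 6 further genes of the carnitine shuttle, 4 rose and 1 fell in TGF-beta medium and 4 rose and 0 fell without EGF. In MTO54 alone 1 rose and 1 fell, and without both dilute libraries, where 28.0% of all genes were called, 1 rose and 0 fell. Cpt1c, the brain-type relative of Cpt1a, rose by 1.34 ± 0.37 in AKP and by 1.92 ± 0.28 in APT lines, and was not called in MTO54 alone (adjusted p = 0.110). It averaged 25.7 ± 11.4 normalised reads in TGF-beta and 9.95 ± 4.95 in full medium in AKP lines, low beside Cpt1a. Cpt2, which returns the chain from carnitine to coenzyme A inside the mitochondrion, fell by 0.72 ± 0.17 in AKP lines and rose by 0.48 ± 0.15 in APT lines. The carrier Slc25a20 rose by 0.64 ± 0.16 in AKP lines and differed by 0.05 ± 0.17 in APT lines.

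Of 18 further genes of mitochondrial beta-oxidation, 8 fell and 1 rose in TGF-beta medium, with a median of -0.45. Hadh, the dehydrogenase for shorter chains, fell by 1.02 ± 0.14, to 1134 ± 162 normalised reads in TGF-beta against 2294 ± 301 in full medium (SD, n = 4 each). The log2 change was -1.01 ± 0.21 for the isomerase Ech1, -0.87 ± 0.16 for the thiolase Acat1 and -0.84 ± 0.19 for Hsd17b10. With MTO54 alone, where 27.6% of all genes were called, 1 of the 18 fell, which was Hadh, and 0 rose. Without EGF 8 of the 18 fell and 4 rose, with a median of -0.37. Decr1, which handles unsaturated chains, fell by 1.21 ± 0.33 and Hsd17b10 by 1.21 ± 0.21, and Acadsb, a dehydrogenase of branched short chains, rose by 0.97 ± 0.18 and Acad10 by 1.15 ± 0.23. Without both dilute libraries 4 of these 18 fell and 3 rose. Genes of odd-chain and branched-chain acyl-CoA fell in 8 of 12 cases and rose in 1 in TGF-beta medium, led by Dbt at -1.59 ± 0.20 and Pcca at -1.10 ± 0.18, and 2 of 12 fell without EGF, Ivd at -0.83 ± 0.16 and Bckdhb at -0.72 ± 0.25. With MTO54 alone 2 of those 12 fell, with Dbt among them and Pcca not (adjusted p = 0.0543), and 0 rose.

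Peroxisomes shorten very long chains before mitochondria take over. In TGF-beta medium 2 of 14 peroxisomal genes rose, the oxidases Acox3 by 1.29 ± 0.21 and Acox2 by 0.93 ± 0.19, and 1 fell, the transporter Abcd3 at -0.68 ± 0.13. In MTO54 alone Acox3 and Acox2 were called higher, and Abcd3 was not called (adjusted p = 0.0752). Without EGF 6 of 14 rose and 1 fell, among them the thiolase Scp2, which rose by 1.11 ± 0.18, and Acox3, which rose by 1.02 ± 0.21. Scp2 averaged 5259 ± 1431 normalised reads without EGF and 2404 ± 426 in full medium in APT lines. With MTO100 alone 2 of the 14 rose, and with MTO101 alone 5. Among the other acyl-CoA thioesterases, 5 of 10 fell and 2 rose without EGF, with log2 changes of -1.71 ± 0.36 for Acot3, -1.70 ± 0.34 for Acot5 and -1.42 ± 0.41 for Acot4, all close relatives of Acot1, and of 1.28 ± 0.15 for Acot11. Without both dilute libraries 3 of the 10 fell and 1 rose. The coding sequences of Acot3, Acot5 and Acot4 were 84.0%, 83.2% and 74.1% identical to Acot1, with longest identical runs of 203, 159 and 108 bases. Reads can be shared there too, so the falls of these genes are not clearly separate from that of Acot1. In TGF-beta medium 2 of 9 thioesterases fell and 1 rose, and Acot9, a mitochondrial thioesterase, rose by 1.29 ± 0.18. In MTO54 alone 0 of 10 fell and 1 rose, which was Acot9. Of the other synthetases for medium and short chains, those that passed the filter were Acss genes, which make acetyl-CoA or propionyl-CoA. Acss1, the mitochondrial acetyl-CoA synthetase, fell by 5.23 ± 0.27 in AKP lines, to 6.82 to 13.6 normalised reads in TGF-beta against 307 to 618 in full medium, and Acss2 fell by 1.52 ± 0.33. In MTO54 alone Acss1 was called and Acss2 was not (adjusted p = 0.125).

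**Figure D4:**
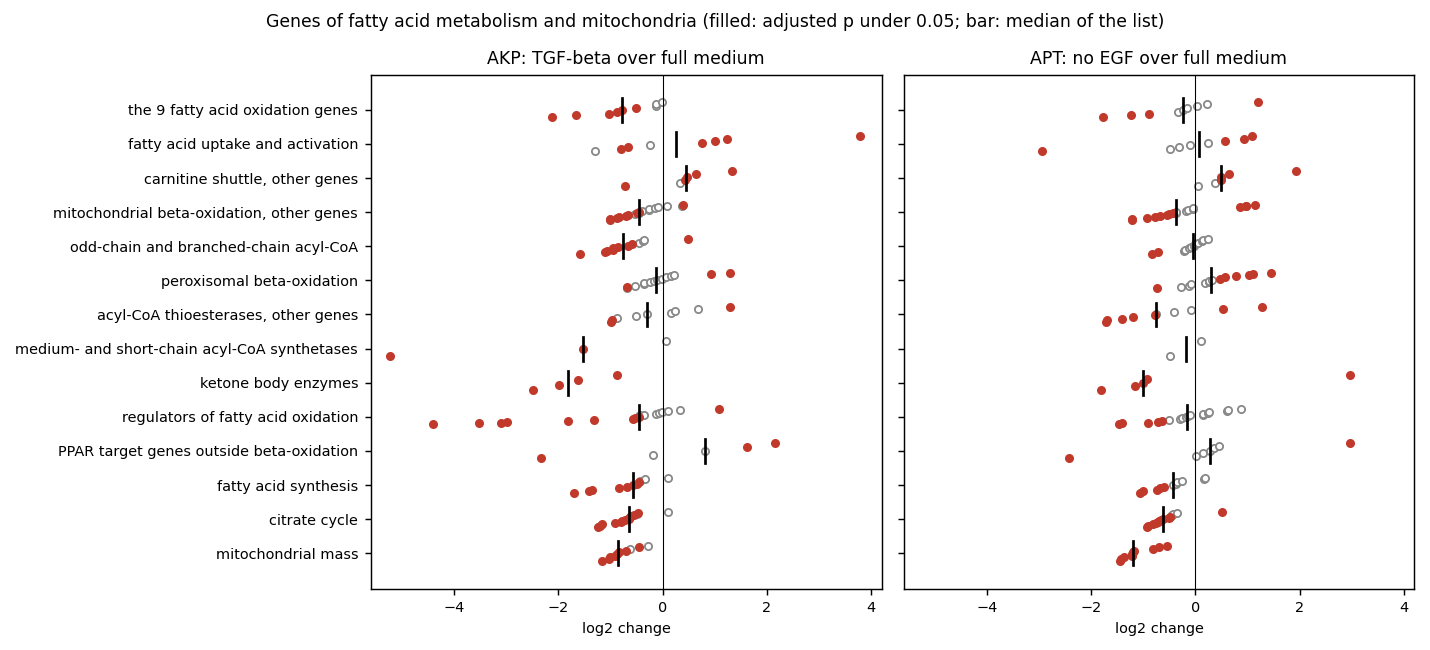
Log2 change with the medium (horizontal axes) of each tested gene in the lists of fatty acid metabolism and mitochondria, in AKP lines (left) and APT lines (right), with filled points for an adjusted p under 0.05 and black bars for the median of each list. In both panels the genes of the citrate cycle and of mitochondrial mass lie mostly below 0, with medians of -0.64 and -0.85 in AKP and -0.63 and -1.20 in APT lines.

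The listed ketone body enzymes include some that make ketone bodies from acetyl-CoA and some, such as Oxct1, that break them down. In TGF-beta medium 4 of 4 tested fell, among them Oxct1 at -1.999 ± 0.233, Bdh1 at -1.63 ± 0.17 and Acat1 at -0.87 ± 0.16. In MTO54 alone 3 of 4 fell, and Acat1 was not called (adjusted p = 0.116). Without EGF 4 of 5 fell and 1 rose, and the log2 change was -1.81 ± 0.25 for Oxct1 and -1.01 ± 0.15 for Bdh1. The citrate cycle fell in 13 of 15 genes in AKP lines, led by Suclg2 at -1.25 ± 0.25 and Fh1 at -1.20 ± 0.16, and in 5 of 15 in MTO54 alone, where Suclg2 was not called (adjusted p = 0.0792). In APT lines 10 of 15 fell and 1 rose, but 1 fell and 0 rose without both dilute libraries. Genes that stand for mitochondrial mass, such as import subunits and chaperones, fell in 8 of 10 cases in AKP and 10 of 10 in APT lines (7 of 10 without both dilute libraries, and 2 of 10 in MTO54 alone). Tufm fell by 1.16 ± 0.17 in AKP lines and Phb1 fell by 1.44 ± 0.19 in APT lines. These are nuclear genes. The share of reads on genes of the mitochondrial chromosome was higher in TGF-beta (1.91 to 2.41% against 1.39 to 1.68% in full medium). It was also higher without EGF (2.62 to 4.05% against 1.74 to 2.09%). Whether the fall of Hadha, Hadhb and Acaa2 is part of a fall of nuclear genes for mitochondrial proteins at large was not tested.

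Of 18 regulators of the pathway, 9 fell and 1 rose in TGF-beta medium. The coactivator Ppargc1a, which raises mitochondrial and fatty acid oxidation genes, fell by 4.41 ± 0.32, to 0.950 to 9.94 normalised reads in TGF-beta against 66.6 to 172.6 in full medium. The nuclear receptor Hnf4a fell by 3.52 ± 0.27, and the log2 change was -3.10 ± 0.28 for Ppargc1b and -2.98 ± 0.28 for Prkaa2, a catalytic subunit of AMP-activated kinase. In MTO54 alone 7 of the 18 fell and 0 rose, and these 4 were among those that fell. Without EGF 5 of 18 fell and 0 rose, with log2 changes of -1.46 ± 0.32 for Pparg, -1.41 ± 0.20 for Hnf4a and -0.91 ± 0.23 for Ppargc1b. Ppara, the receptor best known for inducing these enzymes in liver, was low, at 16.1 to 20.8 normalised reads in TGF-beta and 12.01 to 19.5 in full medium in AKP lines, and at 26.5 to 36.5 without EGF and 14.98 to 37.0 in full medium in APT lines, and it was not called in either. PPAR targets outside beta-oxidation split. In TGF-beta medium the lipid droplet gene Plin2 rose by 2.16 ± 0.28 and Pdk4, which restrains glucose oxidation, by 1.63 ± 0.47, and Txnip fell by 2.34 ± 0.26, of 5 tested. In MTO54 alone Plin2 and Txnip were called and Pdk4 was not (adjusted p = 0.532). Without EGF 1 of 7 tested rose and 1 fell, which was Angptl4 at -2.43 ± 0.41. Genes of fatty acid synthesis fell in 8 of 11 cases in AKP lines, led by Fads2 at -1.71 ± 0.14 and Scd1 at -1.42 ± 0.17, and in 5 of 11 in APT lines, led by Fads2 at -1.07 ± 0.19 and Fads1 at -1.01 ± 0.18, and none of the 11 rose in either. In MTO54 alone 5 of the 11 fell, and without both dilute libraries 2 of the 11 fell in APT lines.

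Likeness was measured as Pearson's r of log2 values over the 16 libraries among 11282 genes, as a description without a test, since the libraries share lines and media. The mean profile of the 7 shuttle and spiral genes was most like Ankmy2 (r = 0.901), Babam2 (0.890), Coq9 (0.882), Pcx (0.882) and Trappc12 (0.878). The 7 genes did not all change alike, as Cpt1a rose and Acaa2 fell without EGF. Their mean profile need not stand for any 1 of them. Coq9 serves the synthesis of ubiquinone, the electron carrier that the acyl-CoA dehydrogenases feed through electron transfer flavoprotein, and Pcx encodes pyruvate carboxylase. Acot1 was most like Acot2 (0.955), with which it can share reads, then Pdk3 (0.934) and Mad2l1 (0.926). Acsm3 was most like Cdx2 (0.948), an intestinal transcription factor, then Abcc3 (0.947) and P2ry6 (0.945).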

How the data were processed

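The signal values deposited by the authors are normalised reads in 1 table of 27179 Entrez IDs and 16 libraries. In each library 100% of them were whole multiples of 1 step within 0.001, and dividing by it recovered whole reads. Size factors ran from 0.868 to 1.16. Per the labels' protocols, poly(A) RNA and a kit that does not mark strand were used, without molecular identifiers. Per the submitters' processing notes, STAR 2.3.0e, DESeq2 1.22.1 and mm10 were used. Annotation and counting program are not given in the sources used here. RefSeq (GRCm38.p6) gave symbols for 25275 IDs (93.0%).

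Values were tested as log2(value + 1) with limma-trend 3.58.1 (robust fit) for genes that reached 10 in 4 libraries, with the line as a term, two-sided. AKP against APT used means of pools per line and genes that reached 10 in 2 lines. The plan had named a count test for counts and this test for normalised values. Alternatives were edgeR 4.0.16 (quasi-likelihood) and DESeq2 1.42.0 on the reads, scaling by TMM or by library totals, other pseudocounts and filters, single lines, averaged pools, the replicate block and leaving out each library. Leaving out both dilute libraries was chosen after seeing the data.

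The 9 genes, lists and rules were chosen with earlier results of these data known. Named list genes are up to 4 called with the largest change, or uncalled ones given with values. Overlapping genes and Acot2 were named for shared reads. Some genes that this rule names are not reported here.

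The labels' pool tag, with a shared passage, pairs the libraries of a line. Deviations of pool 2 from pool 1 correlated between media over 15087 genes at 0.0385 in MTO54, 0.171 in MTO220, 0.174 in MTO100 and 0.127 in MTO101. The script was tested on simulated data that held no differences between lines. That run cannot show how well AKP against APT finds changes among these lines.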

Additional observations from a re-analysis of the deposited data

Results flagged for a closer look

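Among 36 groups of 4 libraries (9 genes in 4 groups of genotype and medium), 1 held a library that stood apart from the other 3. Acadvl in AKP lines in TGF-beta medium reached 1964 normalised reads in pool 2 of MTO54, while the other 3 libraries lay at 1738 to 1767. Chance flags about 1 in 20 such groups.

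The response to TGF-beta medium differed between the AKP lines, as MTO220 minus MTO54, for Cpt1a by 1.28 (adjusted p = 0.0132), for Acaa2 by -1.09 (adjusted p = 0.0347) and for Acsm3 by -2.86 (adjusted p = 0.00453). MTO220 is also the line whose Trp53 RNA was high.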

How the results depend on the processing

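In AKP lines 7226 genes were called, but 3782 with MTO54 alone and 2314 with the pools averaged, and 6 of the 9 genes were called, but 3 with the pools averaged. In APT lines 6969 genes were called, but 4245 with the pools averaged and 3804 without both dilute libraries, and 4 of the 9 were called, but 2 without the line term. Of the APT line difference in response 337 genes were called, but 638 with DESeq2, and in AKP against APT 0, but 927 with libraries as replicates. With the replicate block 2 in place of 5 of the 9 were called in the difference of responses, and Hadha was lost between MTO220 and MTO54. The block changed no other call of the 9 genes. Without 1 library the counts ranged from 343 to 2384 genes and 1 to 3 of the 9 for the AKP line difference (1126 and 3), 80 to 982 and 0 to 1 for the APT line difference (337 and 0), 3 to 5 of the 9 for the difference of responses, 1375 to 3077 and 0 to 3 for MTO220 against MTO54 (2449 and 3), and 1331 to 2672 and 1 to 2 for MTO101 against MTO100 (2031 and 1). Uncalled values changed sign as follows. In AKP lines Cpt1a went to 0.00014 and Acadvl to 0.11 with library totals, Cpt1a to 0.52 in MTO220 alone, and without 1 library Cpt1a ranged from -0.28 to 0.045 and Acadvl from -0.10 to 0.080. In APT lines Acadl went to -0.047 with TMM, -0.016 with edgeR and -0.25 in MTO100 alone, and ranged from -0.11 to 0.13 without 1 library. Hadha went to 0.0033 and Hadhb to 0.15 in MTO101 alone, and Hadhb to 0.074 with library totals and 0.028 without both dilute libraries. In the AKP line difference Acadvl went to -0.028 with TMM and -0.00020 with library totals, and without 1 library Acadvl ranged from -0.23 to 0.23 and Acadl from -0.24 to 0.14. In the APT line difference Acaa2 ranged from -0.51 to 0.059 and Acsm3 from -0.86 to 0.25. Between MTO220 and MTO54 Acadvl ranged from -0.31 to 0.15 and Acadl from -0.33 to 0.047, and between MTO101 and MTO100 Acadm from -0.36 to 0.0036. The cause was not tested. No called value of the 9 genes changed sign. Each line has 2 libraries, 1 per passage, and medium goes with day of collection, which limits every comparison. Genes at low levels, such as Acsm3 in MTO101, rest on few reads, and counting error there is large.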
